A study of Capitella teleta with 10 samples.

Results

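The regions described here are the stretches of chromatin that were most open in the gastrula of the annelid worm Capitella teleta. They were chosen by their own measured values: a consensus peak was kept when its gastrula mean was at least 100 normalised read counts and at least 1.5 times the mean of each of the 4 other stages. Of 46409 consensus peaks, 1070 (2.31%) met this rule, and they lay on 675 scaffolds. Since the same values chose the peaks, how far the gastrula exceeds the other stages is given as a description with no test.

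Accessibility was read with ATAC-seq. This assay uses a transposase that inserts adaptors into DNA not packed into nucleosomes, so that the number of tagged fragments over a region reports how open it was. The study profiled 5 stages with 2 libraries each: the gastrula, the 64-cell embryo and 3 larval stages (4tt, 5 and 8). Each library, as the methods of the study state, held about 50000 cells of pooled whole animals, and the labels name no treatment or mutation. The study calls the 2 libraries of a stage biological replicates, without saying whether they came from separate broods, and p-values measure the spread between these libraries. The 6 libraries of the first 3 stages and the 4 libraries of stages 5 and 8 were sequenced at different centres on different instruments. Stage and batch therefore cannot be told apart where stage 5 or 8 is set beside the 64-cell embryo, the gastrula or stage 4tt. The rule itself sets the gastrula beside stages 5 and 8. The growth protocol in the labels describes another annelid, but the organism label and the sample titles name Capitella teleta.

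Gastrulation is the movement by which a ball of embryonic cells is turned into layers, with endoderm and mesoderm brought inside and ectoderm left outside. In Capitella and other spirally cleaving animals, much of the fate of each cell is set by its lineage during cleavage, and after gastrulation the embryo elongates into a larva in which trunk segments form. An open region that is not packed into nucleosomes can be a promoter, an enhancer or another site where proteins bind DNA. In whole-animal libraries, more cells with an open region and a more open region in each cell cannot be told apart.

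Across libraries, the 1070 peaks had a median of 422 and 416 normalised read counts in the gastrula. The medians of the other libraries were 171 and 159 in 64-cell embryos, 211 and 193 in stage 4tt larvae, 155 and 159 in stage 5 larvae, and 124 and 135 in stage 8 larvae. Over all consensus peaks the library medians lay between 257 and 367, and the 2 gastrula libraries, at 273 and 257, had the lowest of them. In stages other than the gastrula the median of the regions was therefore under the median of all consensus peaks in every library. The upper quartile of the regions was above that median in the 64-cell embryo and at stage 4tt, and below it at stages 5 and 8. The rule capped these stages in the regions and not in all peaks. The rule alone sets the contrast with the gastrula, but it sets no order among the 4 other stages. Their medians placed stage 4tt first and stage 8 last, an order that runs across the batches.

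**Figure D1:**
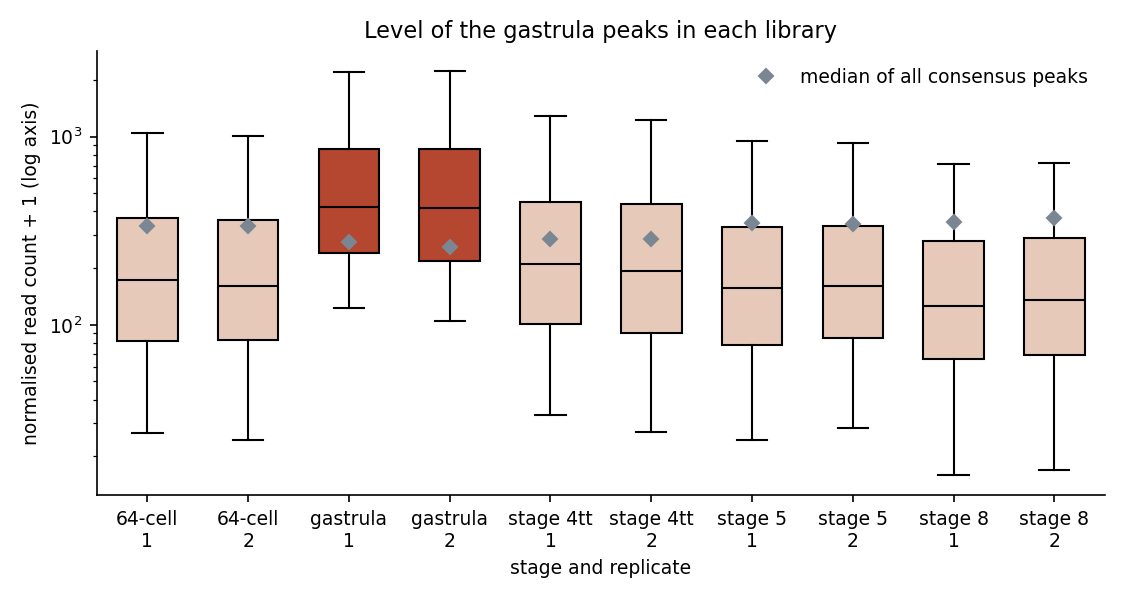
Box plots of the 1070 gastrula peaks in each of the 10 libraries (x axis: stage and replicate; y axis: normalised read count + 1, log axis). Boxes span the quartiles with the median as a line, whiskers run from the 5th to the 95th percentile, and diamonds mark the median of all 46409 consensus peaks; the gastrula medians of 422 and 416 are above the diamonds and the medians of the other 8 libraries are below them.

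Gastrula means ran between 100.3 and 32751, with a median of 417 and quartiles at 230 and 852. The ratio of the gastrula mean to the highest mean among the other stages had a median of 1.75 and quartiles at 1.6 and 2.08. Most of the regions were thus elevated rather than exclusive: 305 reached a ratio of 2, 63 reached 3, 12 reached 5 and 3 reached 10. The other stages together kept a sizeable part of the gastrula signal. The median region held 40.5% of its gastrula mean in 64-cell embryos (quartiles 29.3% and 51.1%), 50% in stage 4tt larvae (38.9% and 59.3%), 39.1% in stage 5 larvae (28.8% and 50%) and 31.8% in stage 8 larvae (20.8% and 43.3%). Levels under 10% of the gastrula were seen for 20 regions in 64-cell embryos, for 17 in stage 4tt larvae, for 45 in stage 5 larvae and for 80 in stage 8 larvae.

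The stage with the second highest mean was stage 4tt for 540 regions (50.5%), the 64-cell embryo for 255 (23.8%), stage 5 for 190 (17.8%) and stage 8 for 85 (7.94%). The most common full order was stage 4tt, 64-cell, stage 5, stage 8, seen in 200 regions (18.7%). The order 64-cell, stage 4tt, stage 5, stage 8 followed with 134 (12.5%), and stage 4tt, stage 5, 64-cell, stage 8 with 110 (10.3%). In these 3 orders, which covered 444 regions (41.5%), stage 8 came last. Regions second to stage 4tt were the strongest, with a median gastrula mean of 500 normalised read counts and a median width of 612 bp. Those second to stage 5 were the weakest, at 264, and had a median width of 779 bp.

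**Figure D2:**
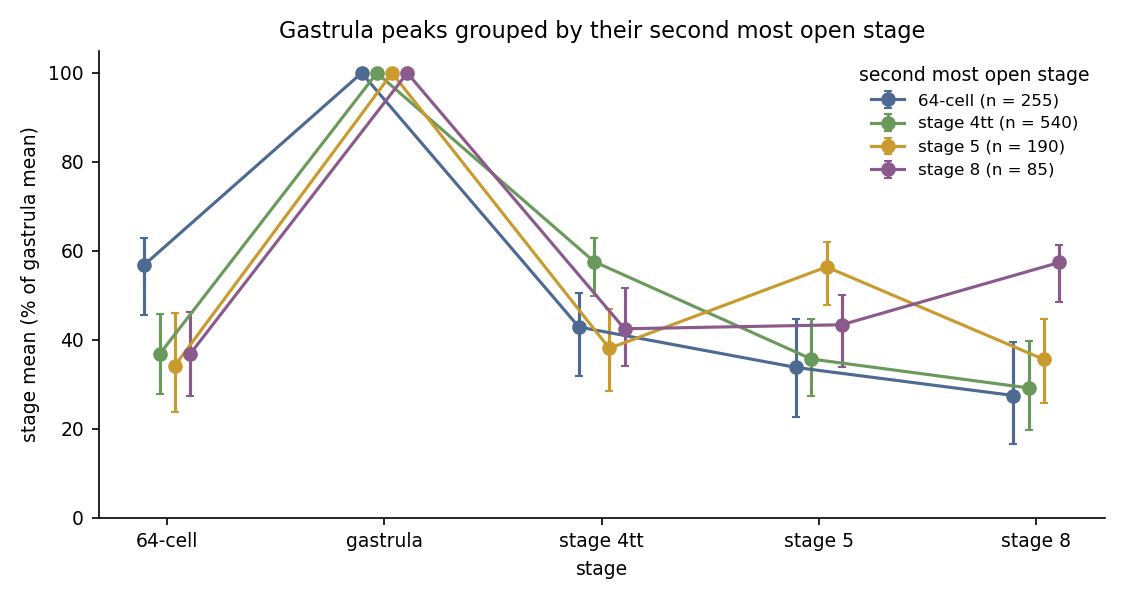
Median stage mean as a percent of the gastrula mean (y axis) at each stage (x axis) for the gastrula peaks grouped by their second most open stage; error bars are quartiles over regions. The 540 regions second to stage 4tt had medians of 57.6%, 35.7% and 29.2% in the larval stages 4tt, 5 and 8; the grouping used these same values, so the second peak of each line is set by it.

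The gastrula libraries were close to each other over most of the regions. The median absolute log2 ratio between them was 0.179, against 0.168 over all consensus peaks. In 1023 of the 1070 regions (95.6%) the lower gastrula library lay above all 8 other libraries, a separation seen in 10.2% of all consensus peaks and largely fixed by the rule. In the remaining 47 regions the groups overlapped. The gastrula libraries differed by more than 2-fold in 50 regions, with replicate 1 the higher in 36 of them.

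The rule was also applied to the libraries numbered 1 alone, and the picked peaks were then read in those numbered 2. This is no independent check, since the authors kept peaks that were reproducible between the libraries of a stage and normalised the libraries together. The held-out libraries thus had a part in which peaks exist. All consensus peaks, given for comparison, were not held to the minimum gastrula mean of the rule. The part of these points in the shares was not tested. The rule picked 1215 peaks on the first set, of which 653 (53.7%) met the 1.5-fold threshold in the second set, against 3.44% of all consensus peaks. The gastrula was the highest of the 5 stages in the second set for 1046 (86.1%) of the 1215, against 16.3% of all peaks. The median ratio was 1.79 in the libraries that picked the peaks and 1.55 in those held out, and 0.592 for all peaks in the held-out set. Picked on the libraries numbered 2, 1058 peaks were found, of which 627 (59.3%) met the threshold and 997 (94.2%) had the gastrula highest in the libraries numbered 1. In these separate picks the gastrula maximum was mostly seen again in the libraries left out of the pick, whereas the 1.5-fold size was met again less often.

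The 5 regions with the highest gastrula mean included a pair far above the rest. CTEL_peak_15320 (scaffold 2314, 8870 to 10030, 1161 bp) had 35090 and 30411 normalised read counts in the gastrula. The other stages had 7164 and 6533 (64-cell), 5205 and 2932 (4tt), 4834 and 6314 (5), and 5207 and 6060 (8). The groups did not overlap, and the gastrula mean of 32751 ± 3309 (SD, n = 2) was 4.78 times the 64-cell mean of 6849 ± 446. CTEL_peak_29951 (scaffold 46093, 35 to 993, 959 bp), the only consensus peak of its scaffold, had 24741 and 13381 in the gastrula. Its 8 other libraries lay between 1839 and 4806, so that the groups stayed apart although the gastrula libraries were far from equal.

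The next 3 were broad peaks on long scaffolds with close replicates. CTEL_peak_18292 (scaffold 27, 255688 to 258710, 3023 bp) had 6530 and 6931 in the gastrula, and 3939 and 4236 at stage 4tt, its second stage. CTEL_peak_20804 (scaffold 302, 97538 to 100397, 2860 bp) had 6555 and 6115 in the gastrula, against 2653 and 2183 in 64-cell embryos and 3015 and 2468, 816 and 899, and 547 and 537 in the larval stages 4tt, 5 and 8. In this region the signal of the last 2 stages was far under that of the first 3. CTEL_peak_20455 (scaffold 3, 655052 to 657516, 2465 bp) had 5666 and 6802 in gastrula libraries, 3979 and 3812 in those of stage 4tt, and between 2263 and 2634 in the 6 libraries of the other stages.

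The 5 regions with the highest ratio were weak, with gastrula means between 102 and 157, and in the first 2 of them the other stages had next to no reads. CTEL_peak_20884 (scaffold 3031, 86 to 443, 358 bp) had 117 and 109 normalised read counts in the gastrula, 1.15 in 1 stage 4tt library and 0 in the 7 other libraries. Its ratio of 197 rests on the 1 read at stage 4tt, for which exact Poisson counting error alone gives a 95% interval of 35.3 to 7762. CTEL_peak_28330 (scaffold 428, 185173 to 185805, 633 bp) had 150 and 54.3 in the gastrula, 2.37 and 0 in the 64-cell embryo, and at most 2.29 in the 6 larval libraries. Its ratio was 86.3, with an interval of 15.5 to 3408 from about 1 read in the 64-cell embryo.

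In 2 of the other 3 the gastrula mean came mostly from replicate 1. CTEL_peak_18131 (scaffold 2674, 725 to 1009, 285 bp) had 288 and 13.6 in the gastrula, and its lower gastrula library was under the 14.2 of 64-cell replicate 1. CTEL_peak_13099 (scaffold 206, 46406 to 47603, 1198 bp) had 180 and 24.7 in the gastrula and between 8.54 and 17.7 in the 8 other libraries. In CTEL_peak_21003 (scaffold 30540, 777 to 1158, 382 bp) both libraries were high, with 186 and 129 in the gastrula and at most 21.7 elsewhere, and the ratio was 7.36.

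The threshold of 1.5 divided peaks that differed little. The 3 regions just inside it were CTEL_peak_13959, CTEL_peak_41551 and CTEL_peak_30209, with ratios of 1.5, 1.501 and 1.501. The 3 peaks just outside it were CTEL_peak_40893, CTEL_peak_5260 and CTEL_peak_20091, with ratios of 1.499, 1.498 and 1.498. At the minimum of 100, CTEL_peak_34158 and CTEL_peak_41792 were just inside, both with a gastrula mean of 100.3, and CTEL_peak_15413 and CTEL_peak_4899 were just outside, with 99.56 and 99.18. CTEL_peak_4899 had 177 in 1 gastrula library and 21 in the other.

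**Figure D3:**
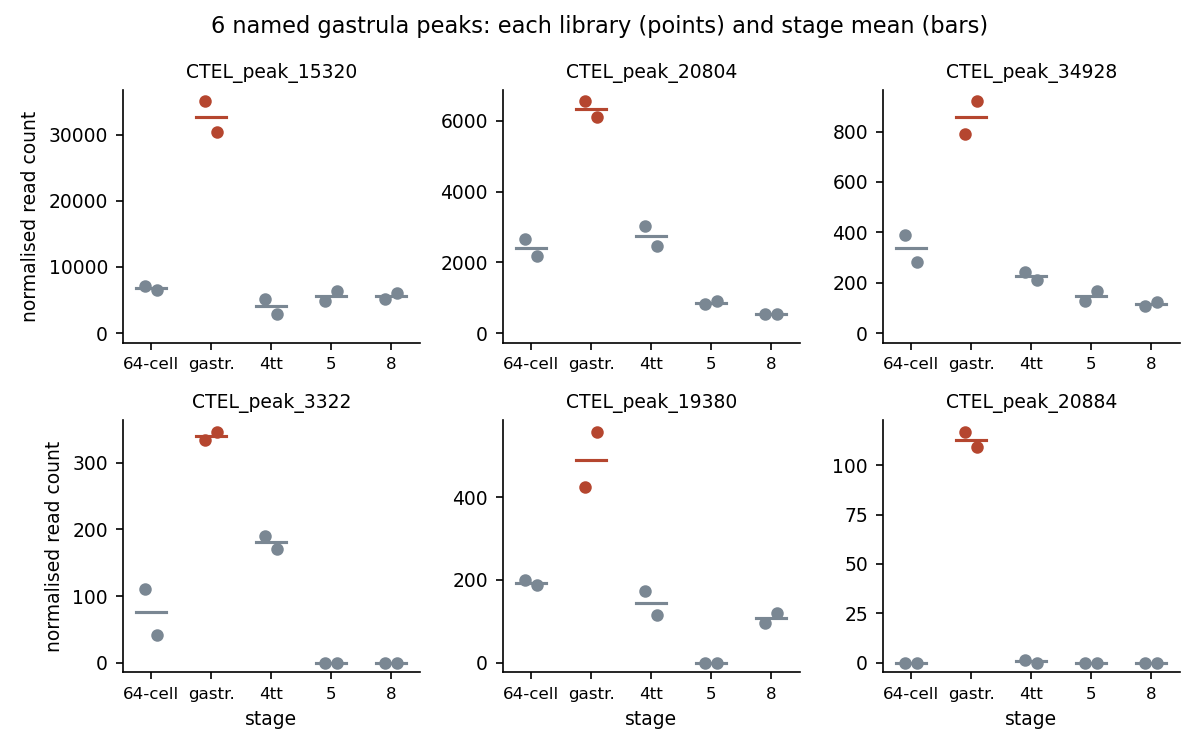
Normalised read counts (y axis, linear, a separate scale per panel) of 6 named gastrula peaks at each stage (x axis); points are the 2 libraries, bars are stage means and the gastrula is in red. CTEL_peak_15320 had 35090 and 30411 in the gastrula, CTEL_peak_3322 and CTEL_peak_20884 had 0 in both libraries of stages 5 and 8, and CTEL_peak_19380 had 0 in both libraries of stage 5 alone.

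Comparisons that leave the gastrula out show how the regions behaved on either side of it. The rule held every other stage under the gastrula but set no order between those stages. It thus capped both stages of each comparison in the regions, whereas all consensus peaks had no such cap. The part of this cap in the gaps between the regions and all peaks was not tested. Each comparison was made with limma on log2(value + 1) over all 46409 peaks, with Benjamini-Hochberg adjustment and a call at an adjusted p under 0.05, and each is read here beside the share called among all peaks.

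Between stage 4tt and the 64-cell embryo, that is after and before the gastrula, more of the regions were higher than lower at the later stage. The median level was 200 normalised read counts at stage 4tt and 166 in the 64-cell embryo. Of the 1070 regions, 362 (33.8%) were called higher at stage 4tt, against 26.8% of all consensus peaks, and 96 (8.97%) were called lower, against 31.0% of all. The remaining 612 (57.2%) were not called. The median log2 change was 0.23 (quartiles -0.14 and 0.68) over the regions and -0.06 over all peaks. The median change of the regions was close to the median standard error of a single region, 0.20, so a region at the median did not pass the test.

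The largest rises here were in weak regions on scaffolds with a single consensus peak. CTEL_peak_21003 had 21.7 and 21.1 normalised read counts at stage 4tt and 0 and 3.93 in the 64-cell embryo, a 10.9-fold difference of means with a counting interval of 3.01 to 89.9 from 2 reads (log2 change 3.33 ± 0.74 SE, limma adjusted p = 0.00141). CTEL_peak_30411 (scaffold 4716, 928 to 1747, 820 bp) had 54.9 and 68.3 at stage 4tt and 4.71 and 13.8 in the 64-cell embryo (log2 change 2.76 ± 0.55, limma adjusted p = 0.000617). The largest falls were in regions, on scaffolds with many consensus peaks, that had signal in the 64-cell embryo and the gastrula, little at stage 4tt, and signal again at stage 5. CTEL_peak_2364 (scaffold 111, 40386 to 40893, 508 bp) had 19.3 and 0 at stage 4tt and 116 and 150 in the 64-cell embryo, beside 288 and 366 in the gastrula and 72.9 and 60.2 at stage 5 (log2 change -4.88 ± 1.27, limma adjusted p = 0.0159). The call was lost without 64-cell replicate 1 (log2 change -5.06, limma adjusted p = 0.0676) and without 64-cell replicate 2 (-4.70, adjusted p = 0.0787). The size rested on which stage 4tt library was kept, being -2.71 without replicate 2 and -7.05 without replicate 1. CTEL_peak_10650 (scaffold 180, 294398 to 294721, 324 bp) had 0 and 1.24 at stage 4tt and 35.4 and 23.6 in the 64-cell embryo (log2 change -4.32 ± 0.56, limma adjusted p = 1.35e-05). The means differed 47.5-fold, with a counting interval of 8.53 to 1877 from about 1 read at stage 4tt. It had 27.2 and 12.6 at stage 5.

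Between stage 5 and stage 4tt most of the called regions were lower at the later stage, those called lower by a median log2 change of -0.80. The median level was 155 at stage 5 and 200 at stage 4tt. Of the 1070 regions, 449 (42%) were called lower at stage 5, against 20.0% of all consensus peaks, and 78 (7.29%) were called higher, against 39.8% of all. The median log2 change was -0.33 (quartiles -0.76 and 0.07) over the regions and 0.23 over all peaks. The 2 medians had opposite signs. The 2 stages were sequenced in different batches, and the part of the batch in these counts was not tested. Without stage 4tt replicate 2 the count called higher was 50, and it was 41 without either stage 5 library. With quantile normalization, which brought the median change of all peaks to 0.01, 25 regions (2.34%) were called higher and 670 (62.6%) lower, against 26% and 25.8% of all peaks.

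Both of the largest falls ended at 0. CTEL_peak_19536 (scaffold 2874, 6150 to 6736, 587 bp) had 0 in both stage 5 libraries and 234 and 163 normalised read counts at stage 4tt, beside 505 and 703 in the gastrula. With a floor of 3 reads over the group it was at least 184-fold lower at stage 5 (limma adjusted p = 5.74e-08). CTEL_peak_3322 (scaffold 1178, 5354 to 5970, 617 bp) had 0 in both stage 5 libraries and 190 and 171 at stage 4tt, and was at least 167-fold lower (limma adjusted p = 1.99e-07). Both stage 8 libraries of CTEL_peak_3322 were at 0 too. Among the rises, CTEL_peak_28341 (scaffold 42896, 16 to 1033, 1018 bp) had 53.2 and 95.5 at stage 5 and 4.55 and 0 at stage 4tt (log2 change 4.94 ± 0.79, limma adjusted p = 0.000401). CTEL_peak_41792 (scaffold 80, 139684 to 140186, 503 bp) had 49.7 and 49.1 at stage 5 and 3.43 and 1.24 at stage 4tt (log2 change 4.00 ± 0.70, limma adjusted p = 0.000274), and 0 in both libraries of stage 8.

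Between stage 8 and stage 5, both of the second batch, more of the regions were called lower than higher at the later stage. The median level was 129 at stage 8 and 155 at stage 5. Of the 1070 regions, 309 (28.9%) were called lower at stage 8, against 17.4% of all consensus peaks, and 41 (3.83%) were called higher, against 15.3% of all. The median log2 change was -0.26 (quartiles -0.63 and 0.04) over the regions and 0.00 over all peaks. The count called higher was 15 without stage 8 replicate 2 and 23 without either stage 5 library, and it was 73 (6.82%) when the 4 libraries were fitted alone, against 23.7% of all peaks.

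The 2 largest called changes in each direction were as follows. CTEL_peak_19380 (scaffold 2847, 7574 to 8771, 1198 bp) had 95.8 and 121 normalised read counts at stage 8 and 0 in both stage 5 libraries, at least 100-fold higher at stage 8 (limma adjusted p = 2.72e-09). Its gastrula libraries had 424 and 559, and the libraries of the 64-cell embryo and of stage 4tt had between 115 and 199. CTEL_peak_19536, at 0 at stage 5, had 14.9 and 14.3 at stage 8, at least 13.5-fold higher (limma adjusted p = 4.24e-06). CTEL_peak_42779 (scaffold 8357, 5015 to 5517, 503 bp) had 0 in both stage 8 libraries and 48.4 and 67.9 at stage 5, at least 59-fold lower (limma adjusted p = 1.45e-06). CTEL_peak_24740 (scaffold 3648, 453 to 2730, 2278 bp) had 1.03 and 3.17 at stage 8 and 114 and 194 at stage 5 (log2 change -5.68 ± 1.5, limma adjusted p = 0.0363), and its call was lost under 8 of 18 alternatives, with adjusted p between 2.51e-06 and 0.168.

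**Figure D4:**
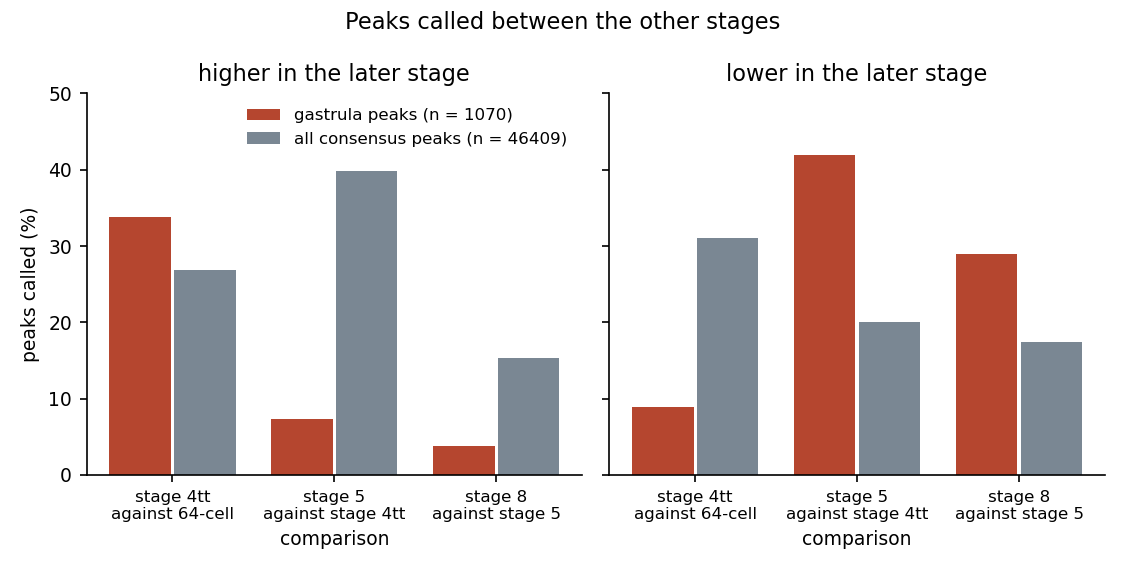
Share of peaks called by limma (y axis, percent) in the 3 comparisons that leave the gastrula out (x axis), for the 1070 gastrula peaks and all 46409 consensus peaks; left panel, higher in the later stage, and right panel, lower in it. The gastrula peaks were called lower at stage 5 than at stage 4tt in 42%, against 20.0% of all peaks, and higher in 7.29%, against 39.8%. The rule capped both stages of each comparison in the gastrula peaks only.

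The 2008 peaks most open in the 64-cell embryo and the 590 most open at stage 4tt, picked by the same rule for their own stage, were set beside the gastrula regions in the comparisons that do not involve their own stage. Between stage 8 and stage 5, 28.9% of the gastrula regions were called lower, beside 18.1% of the 64-cell peaks and 28.6% of the stage 4tt peaks. Called higher were 3.83% of the gastrula regions, 5.73% of the 64-cell peaks and 2.54% of the stage 4tt peaks. Between stage 5 and stage 4tt, which bears on the 64-cell set only, 7.29% of the gastrula regions and 31.7% of the 64-cell peaks were called higher, and 42% of the gastrula regions and 14% of the 64-cell peaks were called lower. The differences between the sets themselves were not tested.

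The peak list called in each library on its own was made from the same reads that chose the regions, so it is no independent check. The rule largely fixes the shares in the gastrula lists. It also capped the other stages in the regions only, and the part of this cap in the shares below was not tested. A region was counted as called in a library when it shared at least 1 base with a listed peak. The gastrula lists held 1062 and 1063 of the 1070 regions (99.3% in each), against 58.9% and 59% of all consensus peaks. The stage 4tt lists held 758 and 720 (70.8% and 67.3%), against 63.9% and 62.5% of all. The 64-cell lists held 440 and 456 (41.1% and 42.6%), against 46.6% and 51.7%. The stage 5 lists held 524 and 543 (49% and 50.7%), against 76.3% and 76.7%, and the stage 8 lists 491 and 468 (45.9% and 43.7%), against 83.5% and 81.4%. Among all consensus peaks the share called was lowest in the 64-cell embryo and highest at stage 8. The 64-cell libraries also had the fewest reads in consensus peaks, about 13907832 and 16403932. The gastrula libraries had about 23055885 and 24936872, and those of stage 8 about 57013635 and 37795156. The part of depth in the calls was not tested. The regions were thus listed less often than consensus peaks in general in the 64-cell embryo and at stages 5 and 8, and more often at stage 4tt.

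**Figure D5:**
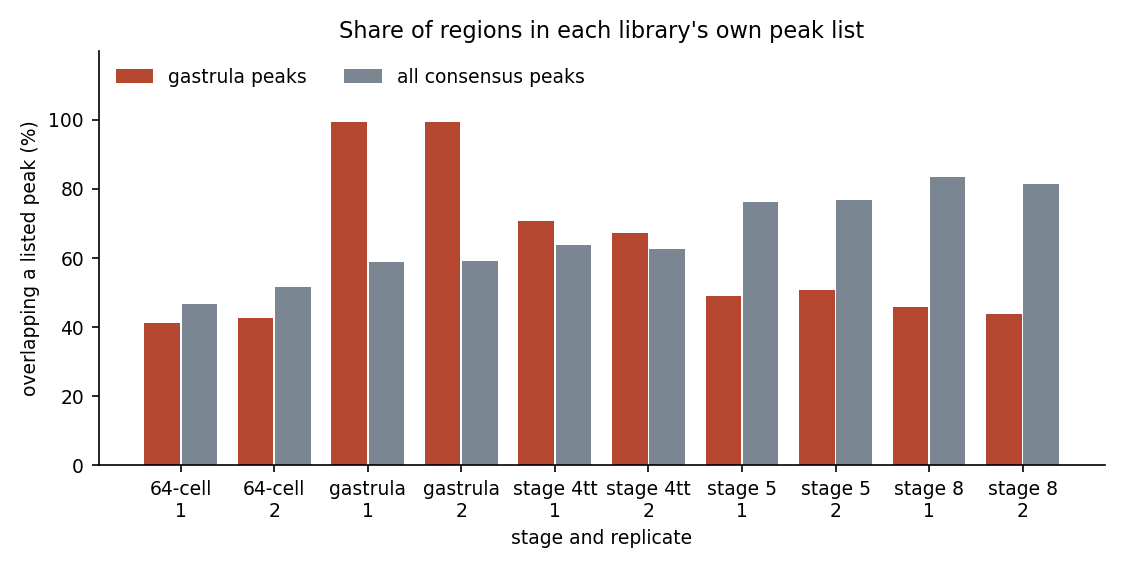
Share of regions (y axis, percent) that share at least 1 base with a peak in the list of each library (x axis: stage and replicate), for the 1070 gastrula peaks and all consensus peaks. The gastrula peaks were at 99.3% in both gastrula libraries, between 67.3% and 70.8% at stage 4tt and between 41.1% and 50.7% in the other libraries. The rule chose these peaks from the same reads, which largely fixes their share in the gastrula lists.

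Both gastrula lists held 1058 of the regions (98.9%) and neither held 3 (0.28%), against 54.8% and 36.9% of all consensus peaks. The rule, which used the same reads, bears on all the call patterns given here, and its part was not tested. In 201 regions (18.8%) both gastrula lists and no other list had a peak, a pattern found in 474 (1.02%) of all consensus peaks. A further 84 (7.85%) were called in both gastrula and both stage 4tt libraries and nowhere else, against 1.24% of all consensus peaks. At the other end, 275 regions (25.7%) were called in all 10 libraries, against 31.5% of all consensus peaks. The regions called in the gastrula alone had a median gastrula mean of 334 normalised read counts and a median ratio of 1.89, and those called everywhere had 419 and 1.75. Absence of a listed peak thus did not mean absence of signal.

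The fold enrichment over background that the authors' caller gave the regions in the gastrula was unremarkable, with medians of 3.36 and 3.33, against 3.47 and 3.46 over all consensus peaks called there. The summits, the positions of greatest signal, of the 2 gastrula lists lay a median of 29 bp apart (32 bp over all consensus peaks). Relative to gastrula replicate 1, the median distance was 41 and 47 bp for 64-cell libraries, 36.5 and 37.5 bp for stage 4tt, 55 and 58 bp for stage 5, and 72 and 63.5 bp for stage 8. Over all consensus peaks these distances were 51 and 53 bp, 36 and 37 bp, 62 and 61 bp, and 56 and 57 bp in the same order, so the regions were nearer at the 64-cell stage and stage 5, further off at stage 8 and about equal at stage 4tt.

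The regions were narrower than consensus peaks in general, with a median width of 678 bp (quartiles 416 and 1014 bp), against 810 bp (487 and 1220 bp). The peaks most open at stage 4tt had a median of 470 bp and those most open in the 64-cell embryo 644 bp. When all consensus peaks were split into 5 equal groups by their mean over the 10 libraries, the regions made up 2.92% of the weakest group, 3.38% of the next, then 2.28% and 1.86%, and 1.08% of the strongest.

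The scaffolds differed in how many consensus peaks they carried. Scaffolds with a single consensus peak held 154 regions (14.4%), against 7.26% of all consensus peaks, 3.44% of the peaks most open in the 64-cell embryo and 5.25% of those most open at stage 4tt. Scaffolds with 2 to 4 consensus peaks held 5.42% of the regions and 5.4% of all consensus peaks. On single-peak scaffolds the gastrula libraries stood further apart, with a median absolute log2 ratio of 0.418 and 20 of 154 regions over 2-fold apart, against 0.156 and 26 of 858 on scaffolds with 5 or more consensus peaks. Over all consensus peaks the replicate ratio was similar in both kinds, at 0.407 and 0.157. The second stage was stage 5 for 33.1% of the regions on single-peak scaffolds and for 13.6% of those on scaffolds with 5 or more, and stage 4tt for 37.7% and 54.2%. With the 858 regions on scaffolds with 5 or more peaks alone, the count called higher at stage 5 than at stage 4tt was 50 (5.83%), against 40.1% of all consensus peaks on such scaffolds.

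Signal at 0 in both libraries of a stage was rare in these regions but occurred at the late stages. It was seen in 16 regions (1.5%) at stage 5 and 22 (2.06%) at stage 8, against 1.76% and 2.08% of all consensus peaks, and thus at about the background share. In the 64-cell embryo 1 region was at 0 in both libraries and at stage 4tt none was, against 3% and 2.57% of all consensus peaks. Of the 22 regions at 0 at stage 8, 8 lay on single-peak scaffolds and 10 on scaffolds with 5 or more.

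Along the scaffolds the regions were mostly single: 970 had no other region as a direct neighbour, 47 runs had 2 and 2 runs had 3. Of the 916 regions with any neighbouring consensus peak, 100 (10.9%) were next to another region, against 3.91% of all consensus peaks with a neighbour. By the same measure, 19.9% of the peaks most open in the 64-cell embryo and 8.41% of those most open at stage 4tt were next to another peak of their own set, so adjacency was not particular to the gastrula regions. The 51 adjacent pairs lay a median of 1180 bp apart, 24 of them under 1000 bp, and adjacent consensus peaks in general 2858 bp. Of the 1583 neighbouring peaks outside the set, 25% had their highest mean in the gastrula, against 15.5% of all consensus peaks outside the set, and 28.2% had it at stage 8, against 33.2%. Scaffolds 2, 47 and 63 held the most regions, 9 each, among 269, 108 and 131 consensus peaks.

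The 2 runs of 3 differed in how alike their regions were. On scaffold 582, CTEL_peak_34927, CTEL_peak_34928 and CTEL_peak_34929 lay within 2160 bp (86298 to 88457) with gaps of 750 and 486 bp. They had 493 and 503, 792 and 922, and 1069 and 1201 normalised read counts in the gastrula libraries. The flanking regions were higher at stage 4tt than in the 64-cell embryo (log2 change 1.55 ± 0.20, limma adjusted p = 1.55e-05, for CTEL_peak_34927 and 0.92 ± 0.13, adjusted p = 3.03e-05, for CTEL_peak_34929). The middle one, CTEL_peak_34928, went the other way, with 241 and 211 at stage 4tt and 389 and 283 in the 64-cell embryo (log2 change -0.56 ± 0.19, limma adjusted p = 0.0224). Neighbouring regions that shared the gastrula maximum thus had different levels before and after it.

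On scaffold 2, CTEL_peak_12432, CTEL_peak_12433 and CTEL_peak_12434 spanned 5226 bp (940882 to 946107) with gaps of 488 and 1950 bp. In the gastrula they had 1358 and 1435, 705 and 712, and 1490 and 1605. CTEL_peak_12432 fell to 430 and 505 at stage 5, against 864 and 822 at stage 4tt (log2 change -0.85 ± 0.12, limma adjusted p = 4.20e-05), and CTEL_peak_12433 fell to 302 and 265, against 452 and 411 (-0.60 ± 0.13, adjusted p = 0.00103). CTEL_peak_12434 had 870 and 920 in the stage 5 libraries, against 775 and 774 in those of stage 4tt, and was not called (0.21 ± 0.09, adjusted p = 0.0697). Of the 47 runs of 2, the one with the highest gastrula mean was CTEL_peak_15320 with CTEL_peak_15321 (scaffold 2314, 11574 to 12937), 1543 bp apart. CTEL_peak_15321 had 1708 and 903 in the gastrula, 876 and 771 in the 64-cell embryo, and 201 and 267 at stage 4tt, so the pair differed widely in gastrula level.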

How the data were processed

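ATAC-seq libraries of 5 stages, 2 per stage, were analysed from 1 table and 10 peak lists. Per the methods of the study, the authors trimmed adaptors (cutadapt), mapped read pairs (NextGenMap), dropped duplicates (SAMtools), corrected read positions for the transposase offset (deepTools), called peaks per library (MACS2 2.2.7.1), kept reproducible peaks outside repeats and made a DiffBind consensus normalised with DESeq2. The methods name assemblies of the species for gene annotation and a gene search, but none for the mapping of these libraries, and coordinates are those of the files with starts counted from 1. The deposited table holds normalised signal, here called normalised read counts. The deposited lists hold, per peak, a score, a fold enrichment (ratio), a −log10 p-value and a −log10 q-value, of which the lowest was 2. In the deposited table no column was left unassigned.

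Low values in the table were mostly multiples of what 1 read was worth, estimated at 0.516 to 2.35 by library, which puts about 13907832 to 57013635 reads in consensus peaks. The gastrula regions had medians of 314 and 337 reads in the gastrula libraries and of 73 and 81 in the 64-cell libraries, so precision was lowest in the 64-cell embryo. For values up to 20 reads, 84.1% to 99.9% by library were whole within a tolerance of 0.1, and over all values 23.3% to 26.6%, so reads at high values are approximate. Intervals and floors cover counting error only.

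Log2(value + 1) was tested with limma 3.58.1 (trend, robust) in R 4.3.3 in 1 fit of all 10 libraries, two-sided, adjusted over 46409 peaks with Benjamini-Hochberg. Changes of weak peaks are understated on this log2(value + 1) scale. Alternatives were a pseudocount of 10, a filter on low values, TMM and quantile scaling, the 4 libraries compared alone, a minimum log2 change, a replicate block and leaving out each library. Chosen after seeing the data were edgeR 4.0.16 on reads recovered for the 6 larval libraries, approximate at high values (44479 peaks and 1067 regions passed its filter) and a count without regions on scaffolds with under 5 consensus peaks. Other steps used Python 3.11.15, pandas 2.3.3 and SciPy 1.17.1. The regions and the choices of tests were made with earlier results of these data known. Named regions were the 5 with the highest ratio, the 5 with the highest gastrula mean, the 2 called regions with the largest change each way in each comparison, those next to the thresholds, and the 3 longest runs, with ties for the third settled by gastrula mean. The 6 regions plotted singly were chosen from these after their values were seen. Genes, motifs and sequences were not analysed here, since the peaks were not joined to a genome.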

Additional observations from a re-analysis of the deposited data

How the results depend on the processing

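The number of regions depended on the threshold and scaling: 305 met the rule at 2 times, 2009 at 1.3 times, 1621 with TMM factors, 1662 with quantile normalization and 549 when every gastrula library had to be 1.5 times every other library, and leaving out each library gave 1027 to 1215. The 3 comparisons kept their balance of calls under every alternative. With TMM factors 49 regions (4.58%, against 30.5% of all peaks) and with quantile normalization 25 (2.34%, against 26%) were higher at stage 5 than at stage 4tt, the median log2 change being -0.52 and -0.69 against 0.04 and 0.01 over all peaks. With the 4 libraries compared alone, 73 (6.82%, against 23.7%) were higher at stage 8 than at stage 5, and with edgeR on recovered reads 62 (5.81%, against 24.1%). A log2 change of at least 1 left 122 higher and 28 lower at stage 4tt than in the 64-cell embryo, 44 higher and 153 lower at stage 5 than at stage 4tt, and 13 higher and 107 lower at stage 8 than at stage 5. As shares these were 11.4% and 2.62%, 4.11% and 14.3%, and 1.21% and 10% of the regions, against 7.87% and 11.4%, 16.1% and 3.53%, and 2.57% and 3.45% of all peaks. On scaffolds with 5 or more consensus peaks, 50 (5.83%, against 40.1%) were higher at stage 5 than at stage 4tt. Leaving out each library gave 289 to 368 higher and 74 to 109 lower at stage 4tt than in the 64-cell embryo, 41 to 104 and 343 to 472 at stage 5 than at stage 4tt, and 15 to 49 and 208 to 341 at stage 8 than at stage 5. The held-out share of 53.7% was 59.3% when picked on replicate 2, and 86.1% when the gastrula only had to be highest. Where values moved, the cause was not tested.

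Whether libraries with the same replicate number share an origin is not stated, and correlations over peaks cannot settle it. Deviations of libraries with the same number correlated at -0.063, -0.022 and 0.116 over 41021 peaks in the 3 comparisons. With the replicate number as a block the counts were 362 higher and 96 lower, 79 and 448, and 40 and 302. Depth limits the weak regions most: up to 44 of the 1070 had under 10 reads in a library.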

Other observations

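Outside the set, 273 consensus peaks were called in both gastrula lists and in no other list without meeting the rule. Their median gastrula mean was 173 normalised read counts and their median ratio to the highest other stage 1.27, against 334 and 1.89 in the 201 regions of the set with the same pattern of calls. The gastrula had the highest mean in 213 of the 273, and 82 had a gastrula mean under 100.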
